A study of Mus musculus with 12 samples.

Results

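The genes of the mitochondrial protein import machinery were compared between hearts of ac-CYB5R3–KO mice and of ac-WT mice. The rule for members used gene symbols and no measured value, though earlier results of these data were known when it was set. They were the protein-coding mouse genes whose symbol starts with Timm, Tomm, Samm or Grpel, together with Pam16, Dnajc19, Pmpca, Pmpcb, Hspa9 and Chchd4. This gave 34 members among 53700 counted genes. Tomm20, the 35th symbol that the rule selects, was not matched to a row of the counts and was not analysed here.

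Ventricular muscle is rich in mitochondria, and nearly all of their proteins are made in the cytosol and must be carried in. Receptors and the pore of the outer membrane (TOM) take up the precursor, small chaperones of the intermembrane space escort hydrophobic ones, and the inner membrane translocases TIM23 and TIM22 pass them to the matrix or insert them in the membrane. An import motor built on the matrix Hsp70 pulls the chain inward, and a peptidase then removes the targeting sequence.

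Whole-heart RNA was sequenced from 6 ac-WT mice (CYB5R3wt/wt) and 6 ac-CYB5R3–KO mice (CYB5R3fl/fl). All 12 were male, of an FVB/B6 mixed background bred into C57BL/6J, carried Myh6-CreERT2 and received tamoxifen, so that Cre and drug are shared by both groups. They were 10 to 13 weeks old when injections of 33 mg/kg/d began, were injected on 5 days, and gave their hearts 5 days after the last dose. The Myh6 promoter drives Cre in cardiomyocytes, and the fusion to an estrogen receptor keeps Cre inactive until tamoxifen is present. Other cells of the heart keep Cyb5r3 and also contribute RNA.

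Each library held between 43393183 and 53754284 counted reads. Cyb5r3, the deleted gene, lay at 81.9, 121 and 185 CPM (counts brought to a common library size with TMM factors; lowest, median and highest) in ac-WT hearts and at 42, 52.7 and 67.4 CPM in ac-CYB5R3–KO hearts. The groups did not overlap, and the fitted log2 change was -1.22 ± 0.19 (SE), with an adjusted p of 0.045 in edgeR. The hearts of ac-WT mice 2 and 3 stood apart, with TMM factors of 0.57 and 0.723. Those of the other hearts ran from 0.988 to 1.22. Values without ac-WT mice 2 and 3 are therefore given beside many of the results, and members that change sign without them are named at the end. Summed levels of 10 cardiomyocyte markers ran from 22963 to 53851 CPM in ac-WT hearts, the highest being mouse 2, and in ac-CYB5R3–KO hearts from 17149 to 28057 CPM. Of these markers 3 had an unadjusted p under 0.01, as 4.59% of all genes tested did, and 0 were called at an adjusted p under 0.05, and their median log2 fold change was -0.44. Markers of red blood cells summed to between 222 and 4486 CPM in ac-WT and between 1323 and 12226 CPM in ac-CYB5R3–KO hearts, and those of cartilage and airway to between 3.47 and 35.1 and between 37.5 and 96.6 CPM, with Col9a1 and Scgb1a1 at or near 0. Median log2 fold changes were -0.28 for macrophage and 0.75 for lymphocyte markers, the latter at most 2.88 CPM in sum. For endothelial, fibroblast, and smooth muscle and pericyte markers they were -0.01, 0.16 and 0.00. An unadjusted p under 0.01 was found for 2 markers each of lymphocytes, smooth muscle and pericytes, and cartilage and airway. The part of these differences in the values of the import genes was not tested. In RNA from whole tissue, fewer cells of a type and less RNA per cell cannot be told apart.

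No import gene passed the test. Of the 31 members with enough counts to be tested, 0 had an adjusted p under 0.05, where 0.101% of all 17847 genes tested did, and the lowest adjusted p was 0.222 (edgeR quasi-likelihood test, two-sided). With edgeR, 0 members were lower in ac-CYB5R3–KO hearts at an unadjusted p under 0.01, beside 3.27% of all genes. At an unadjusted p under 0.05, 7 of 31 were lower beside 9.73%. With DESeq2 the counts were 0 at an adjusted p under 0.05 and 1 at an unadjusted p under 0.01. Of the 17847 genes, 437 and 1238 passed these thresholds with DESeq2 in either direction. In the two-sided exact permutation test of single genes, 9 of the 31 members had an unadjusted p under 0.05. The lowest values in this exact permutation test were exact p = 0.00433 for Dnajc19 and exact p = 0.00649 for Pam16. They were not adjusted over genes, and no share of all genes is given beside them. No member had groups that did not overlap, beside 1.55% of all genes. The fitted log2 fold changes were small, from -0.49 to 0.16, and 25 of the 31 mean levels differed by less than 20% between the groups.

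Most of the fitted values were nonetheless below 0. A negative log2 fold change was found for 26 of 31 members (83.9%) beside 51.2% of all genes, and the median over members was -0.13 beside -0.01 over all genes. This balance changed without 1 or 2 of the ac-WT hearts and with another scaling between libraries. Without ac-WT mouse 2 alone, 19 members were lower (61.3%, beside 50.2% of all genes) and 12 higher, and the median was -0.02. With any single mouse left out the median ran from -0.20 to -0.02. Without ac-WT mice 2 and 3, 13 members were lower and 18 higher, the median was 0.02 for members and 0.02 for all genes, and 2 members were lower at an unadjusted p under 0.05 beside 4.53% of all genes. With libraries scaled to their total counts, 6 members (19.4%) were lower and 25 higher, but only 18.1% of all genes were lower too. The median was then 0.17 beside 0.26 for all genes. The median of members relative to that of all genes was -0.12 with TMM factors and -0.08 with total counts. Below the median of all genes were 26 of 31 members with TMM factors and 23 with total counts. Without ac-WT mice 2 and 3 there were 15.

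**Figure D1:**
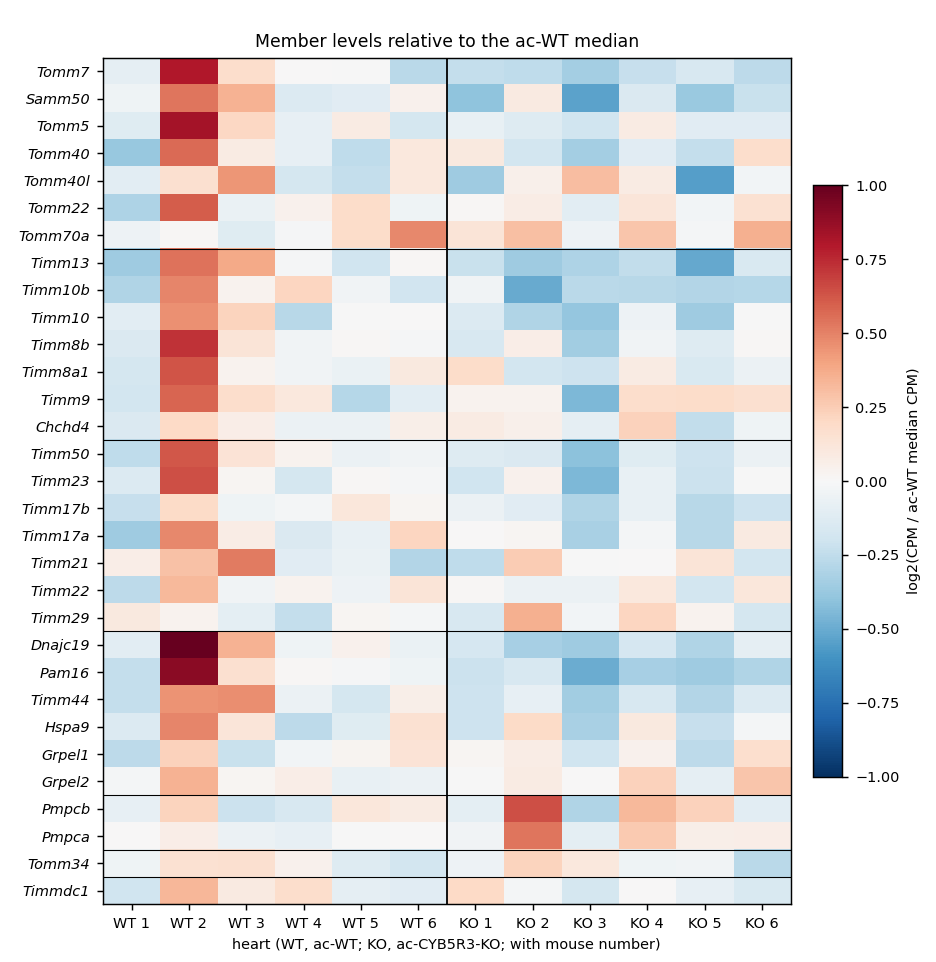
Level of each of the 31 tested import genes (rows, ordered by role, separated by lines) in each of the 12 hearts (columns), as the log2 ratio of its CPM to the median CPM of the 6 ac-WT hearts. The heart of ac-WT mouse 2 is the highest of the 12 in 22 rows, and the other 5 ac-WT hearts are mostly near 0.

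The heart of ac-WT mouse 2 was the highest of all 12 for 22 of the 31 members, while 20.4% of all genes had their highest value there. Among ac-WT hearts alone it was the highest for 25 members. The median coefficient of variation of a member was 20.5% in ac-WT and 11.3% in ac-CYB5R3–KO hearts, beside 24.9% and 15.7% over all genes tested. Without ac-WT mouse 2 it was 11.3% in both groups for members, and 21.6% and 15.7% over all genes. The larger SD was that of ac-WT hearts for 25 members (80.6%, beside 77.1% of all genes) and, without that mouse, for 19 members (61.3%, beside 70.2%).

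Values are given by role, from the outer membrane inward. The 7 tested outer membrane genes had a median log2 fold change of -0.13 and a range from -0.39 to 0.08, and 2 of them, Tomm7 and Samm50, were lower at an unadjusted p under 0.05. The median without ac-WT mice 2 and 3 was 0.02, with 3 lower, 4 higher and 0 at an unadjusted p under 0.05, and with total counts it was 0.19. Tomm7, a small subunit that modulates the assembly of the TOM complex, lay at 66, 79.7 and 139 CPM in ac-WT hearts (lowest, median and highest, as for all values of this form below) and at 63.1, 67.1 and 71.2 CPM in ac-CYB5R3–KO hearts. All 6 ac-CYB5R3–KO hearts were below the ac-WT median, but the lowest ac-WT heart lay inside their range. Its log2 fold change was -0.39 (SE 0.15, adjusted p by edgeR = 0.267), -0.15 without ac-WT mice 2 and 3, and -0.05 with total counts. Samm50, the core of the machinery that folds beta-barrel proteins into the outer membrane, lay at 87.2, 96 and 139 CPM in ac-WT and at 66.2, 78.1 and 102 CPM in ac-CYB5R3–KO hearts. Here 5 of 6 ac-CYB5R3–KO hearts were below the ac-WT median and the groups overlapped. The log2 fold change was -0.38 (SE 0.14, adjusted p by edgeR = 0.253), -0.18 without ac-WT mice 2 and 3, and -0.06 with total counts.

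Tomm40, the pore through which precursors cross the outer membrane, showed little difference. Its ac-WT hearts lay at 29.4, 38.2 and 56.4 CPM and its ac-CYB5R3–KO hearts at 30.1, 34.5 and 43 CPM, so that every ac-CYB5R3–KO heart was within the ac-WT range (log2 fold change -0.13, 95% interval -0.45 to 0.20). Tomm40l, its paralog, had 0.842 CPM per kb of exon in ac-WT hearts where Tomm40 had 9.25, and lay at 2.31, 2.72 and 3.69 CPM in ac-WT and 1.86, 2.74 and 3.37 CPM in ac-CYB5R3–KO hearts. It overlaps Nr1i3 on the opposite strand, and the strand setting of the counting is not given in the sources used here. The receptors Tomm22 and Tomm70a, which bind incoming precursors, had log2 fold changes of -0.06 and 0.08. Tomm5, a small subunit of the pore complex, had -0.26, or -0.01 without ac-WT mice 2 and 3. Each of the 95% intervals over all hearts included 0. The 2 remaining outer membrane genes were too low to test, since Tomm20l held 115 and Tomm6 held 42 counts over all 12 libraries. The annotated exons of Tomm6 are shared with Prickle4, so its reads may have been lost in counting.

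The translocases of the inner membrane resembled those of the outer membrane in their median. The 7 inner membrane genes, all tested, had a median log2 fold change of -0.13 and a range from -0.27 to 0.08, with 0 at an unadjusted p under 0.05. When ac-WT mice 2 and 3 were left out the median was 0.01, with 3 lower and 4 higher, and with total counts it was 0.16. Timm23, the channel of the presequence translocase, lay at 78.6, 88.8 and 139 CPM in ac-WT and at 65.2, 80.9 and 91.6 CPM in ac-CYB5R3–KO hearts. The heart of ac-WT mouse 2 was far above the rest, 3 ac-CYB5R3–KO hearts were below the lowest ac-WT heart, and the groups overlapped. The log2 fold change was -0.23 (SE 0.14, adjusted p by edgeR = 0.477), or -0.05 without ac-WT mice 2 and 3. Its partner Timm17a lay at 55.1, 70.5 and 98.2 CPM in ac-WT and at 56.2, 70.1 and 74.9 CPM in ac-CYB5R3–KO hearts, with nearly equal medians. The alternative partner Timm17b lay at 13.8, 16.2 and 18.4 CPM in ac-WT and at 13.1, 14.5 and 15.5 CPM in ac-CYB5R3–KO hearts. All 6 ac-CYB5R3–KO hearts were below the ac-WT median of Timm17b, and the log2 fold change was -0.18 (SE 0.09, adjusted p by edgeR = 0.359).

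The carrier translocase inserts metabolite carriers into the inner membrane. Timm22, its channel, lay at 15.2, 18.2 and 22.8 CPM in ac-WT and at 16, 17.9 and 19.7 CPM in ac-CYB5R3–KO hearts, and every ac-CYB5R3–KO heart was inside the ac-WT range. Its log2 fold change was -0.04 (95% interval -0.26 to 0.18), and Timm29, another subunit of that complex, had 0.08. For TIM23, the receptor Timm50 had a log2 fold change of -0.27, or -0.09 without ac-WT mice 2 and 3, and Timm21, which links TIM23 to TOM and the respiratory chain, one of -0.09.

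**Figure D2:**
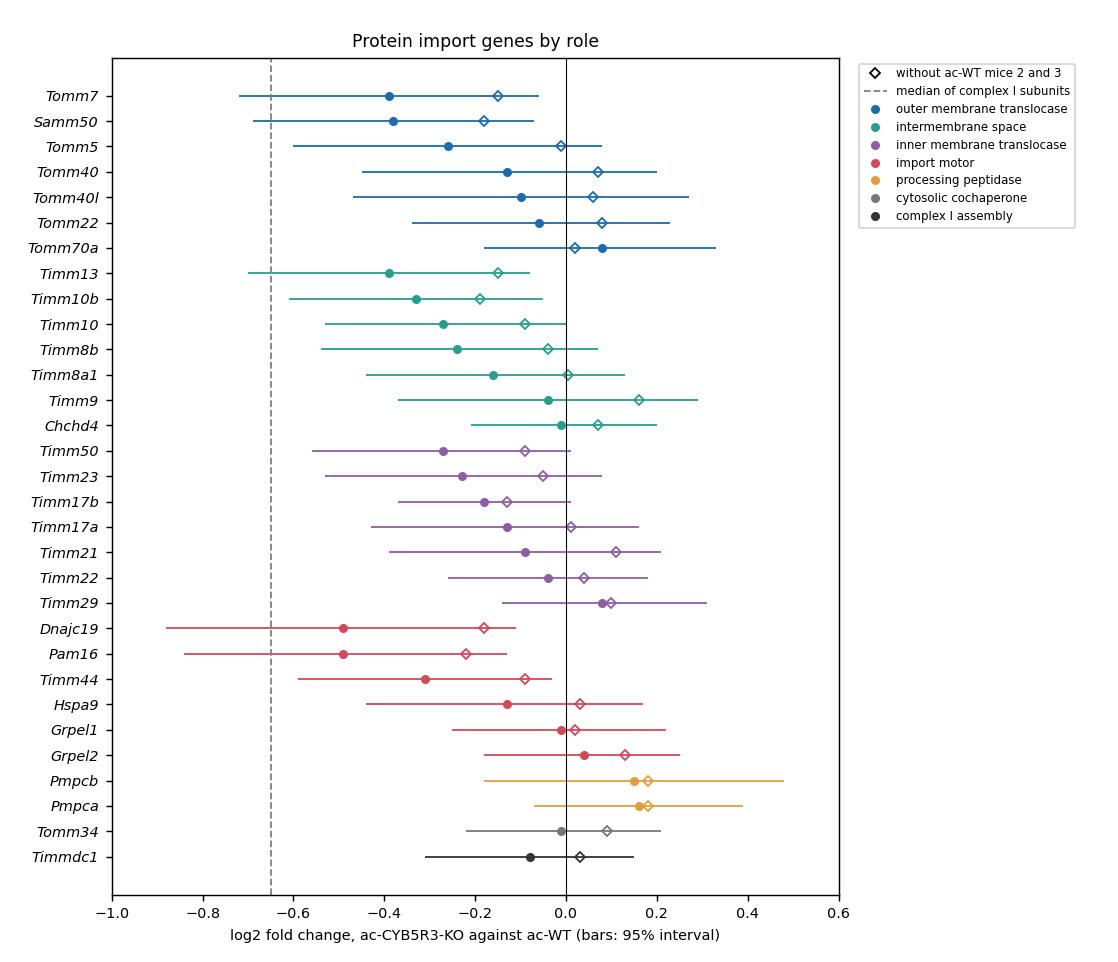
Log2 fold change of each tested import gene (filled points, edgeR, ac-CYB5R3–KO against ac-WT, n = 6 hearts per group) with its 95% interval (bars), coloured by role, and the value without ac-WT mice 2 and 3 (open diamonds). The outer and inner membrane genes cover similar ranges, 24 of the 31 intervals include 0, and most diamonds lie closer to 0 than the points; the dashed line is the median of complex I subunits at -0.65.

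Outer and inner membrane translocases were then set against each other inside each heart, where the scaling between libraries has no effect. The mean log2(CPM) of the 7 outer members minus that of the 7 inner members was 0.37, 0.41 and 0.51 in ac-WT hearts and 0.30, 0.38 and 0.44 in ac-CYB5R3–KO hearts. The ac-WT mean was 0.42 ± 0.05 (SD, n = 6) and the ac-CYB5R3–KO mean 0.37 ± 0.05 (SD, n = 6). The difference of -0.04 was smaller than the SD of either group, the groups overlapped, and without ac-WT mice 2 and 3 it was -0.01. No shift of one membrane's translocases against the other's was detectable at this number of hearts.

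The intermembrane space genes had a median log2 fold change of -0.24, with all 7 tested members below 0. Leaving out ac-WT mice 2 and 3 gave a median of -0.04, with 4 lower and 3 higher, and with total counts it was 0.09, with 2 lower and 5 higher. Timm13, a small chaperone that escorts precursors of the inner membrane, lay at 37.9, 48.6 and 70.7 CPM in ac-WT and at 34, 40.1 and 43.7 CPM in ac-CYB5R3–KO hearts. All 6 ac-CYB5R3–KO hearts were below the ac-WT median, and the log2 fold change was -0.39 (SE 0.14, adjusted p by edgeR = 0.249). Timm10b, a small Tim at the carrier translocase, lay at 8.82, 10.9 and 15.2 CPM in ac-WT and at 7.67, 8.94 and 10.6 CPM in ac-CYB5R3–KO hearts (log2 fold change -0.33, SE 0.13, adjusted p by edgeR = 0.272). It shares sequence on the same strand with Dnhd1, so its reads could have been divided between these genes. These were the 2 intermembrane members lower at an unadjusted p under 0.05, and without ac-WT mice 2 and 3 both values moved to -0.15 and -0.19. With total counts they were -0.06 and -0.03.

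Timm9 and Timm10 form one hexameric chaperone, and the test of their ratio is given with the other pairs. Timm10 lay at 24.6, 29.8 and 40.8 CPM in ac-WT and at 22.7, 25.6 and 29.7 CPM in ac-CYB5R3–KO hearts, with all 6 of the latter below the ac-WT median (log2 fold change -0.27). Timm9 lay at 11.2, 13.7 and 20.5 CPM in ac-WT and at 10, 14.7 and 15.5 CPM in ac-CYB5R3–KO hearts, with 1 of the latter below the ac-WT median (log2 fold change -0.04). Timm8b, a partner of Timm13, lay at 36.8, 40.7 and 67.2 CPM in ac-WT and at 32, 38.5 and 42.5 CPM in ac-CYB5R3–KO hearts. Timm8a1, its paralog, lay at 14.2, 16 and 24.8 CPM in ac-WT and at 13.9, 14.9 and 18.2 CPM in ac-CYB5R3–KO hearts. Both overlapped widely, and their log2 fold changes were -0.24 and -0.16. Without ac-WT mice 2 and 3 the values were -0.04 for Timm8b, 0.0037 for Timm8a1 and -0.09 for Timm10. Chchd4, the oxidoreductase that traps small Tim proteins by disulfide exchange, had a value of -0.01 (95% interval -0.21 to 0.20). Timm8a2 held 1 count in all and 0 counts in 11 of 12 libraries, and a count of 0 allows up to 3 counts, or between 0.0507 and 0.105 CPM by library. How reads shared between Timm8a1 and Timm8a2 were assigned is not given in the sources used here.

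The lowest single values belonged to the import motor, and within it to a pair of J-type proteins. As a role the motor was not the lowest, with a median log2 fold change of -0.22 beside -0.24 for the intermembrane space. Without ac-WT mice 2 and 3 these medians were -0.03 and -0.04. Dnajc19, a J-protein that activates the matrix Hsp70 at the translocase and whose loss is a known cause of cardiomyopathy in humans, lay at 30.3, 32.6 and 66.5 CPM in ac-WT hearts and at 25.4, 27.6 and 30.5 CPM in ac-CYB5R3–KO hearts. All 6 ac-CYB5R3–KO hearts were below the ac-WT median, and the groups met at 30.3 and 30.5 CPM. The log2 fold change was -0.49 (SE 0.18, adjusted p by edgeR = 0.241). Pam16, the J-like partner that holds such J-proteins at the motor, lay at 22.7, 26.8 and 50.2 CPM in ac-WT and at 19, 21.5 and 24 CPM in ac-CYB5R3–KO hearts. Its ac-CYB5R3–KO hearts were likewise all below the ac-WT median, and the log2 fold change was -0.49 (SE 0.17, adjusted p by edgeR = 0.222).

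Size and precision of both values depended on the high ac-WT hearts. Without ac-WT mice 2 and 3 the log2 fold changes were -0.18 for Dnajc19 and -0.22 for Pam16 (adjusted p by edgeR = 0.604 and 0.55), and these were the 2 members still lower at an unadjusted p under 0.05. With total counts they were -0.14 and -0.15. Both therefore stayed below 0 under every setting tried, from -0.56 to -0.14 for Dnajc19 and from -0.56 to -0.15 for Pam16. Neither passed an adjusted p of 0.05 under any of the 20. The sign was not particular to them, since Timm13, Timm10b, Samm50 and Tomm7 also stayed below 0 under all 20. Their highest values were -0.06, -0.03, -0.06 and -0.05.

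The other motor genes did not pass the test either. Timm44, which tethers Hsp70 to the channel, lay at 36.4, 42.9 and 59.2 CPM in ac-WT and at 33.8, 37.7 and 40.6 CPM in ac-CYB5R3–KO hearts (log2 fold change -0.31, SE 0.13, adjusted p by edgeR = 0.292). Its log2 fold change was -0.09 without ac-WT mice 2 and 3 and 0.01 with total counts. Hspa9, the matrix Hsp70 itself, lay at 163, 196 and 275 CPM in ac-WT and at 156, 182 and 224 CPM in ac-CYB5R3–KO hearts, with wide overlap (log2 fold change -0.13, 95% interval -0.44 to 0.17). Grpel1, the nucleotide exchange factor of Hspa9, lay at 30.2, 36.2 and 42.4 CPM in ac-WT and at 30.2, 36.9 and 40.6 CPM in ac-CYB5R3–KO hearts. Its paralog Grpel2 lay at 10.6, 11.2 and 14.2 CPM and at 10.5, 11.5 and 13.5 CPM. The groups overlapped widely for both exchange factors, with log2 fold changes of -0.01 and 0.04.

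**Figure D3:**
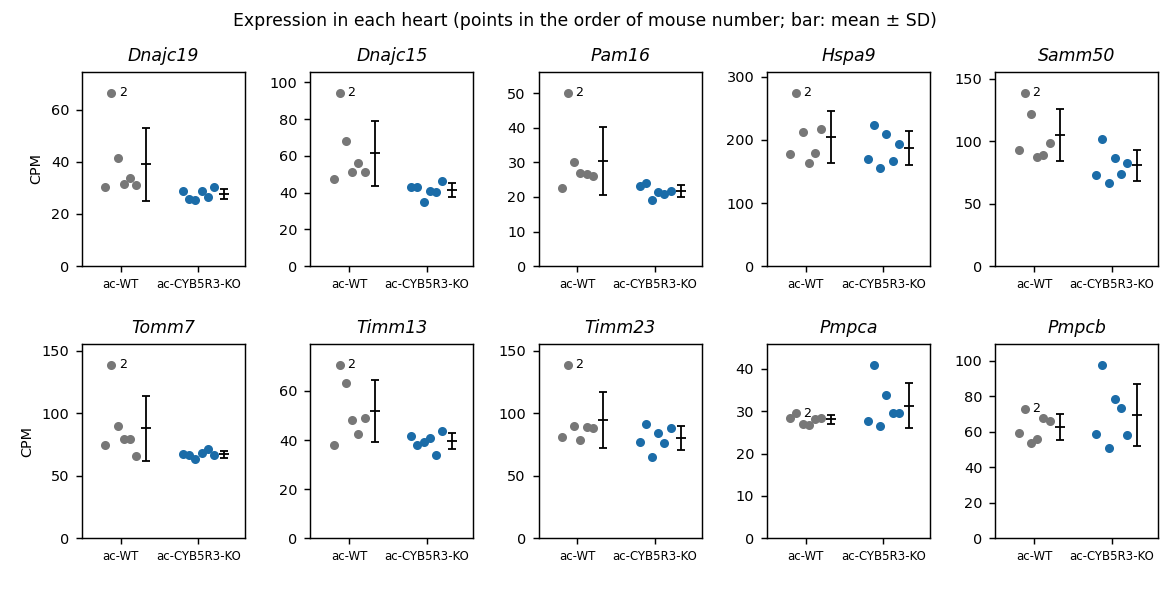
CPM of 10 import genes in each heart (grey, 6 ac-WT; blue, 6 ac-CYB5R3–KO; in the order of mouse number, ac-WT mouse 2 marked; bars, mean ± SD), each axis starting at 0. The ac-WT mouse 2 point is highest in Dnajc19, Dnajc15, Pam16, Hspa9, Samm50, Tomm7, Timm13 and Timm23, and ac-CYB5R3–KO mouse 2 is highest in Pmpca and Pmpcb.

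Ratios to Hspa9 in the same heart, chosen after the values were seen and given without a test, describe the motor without any scaling. Dnajc19 per Hspa9 was 0.142, 0.19 and 0.242 in ac-WT and 0.116, 0.158 and 0.17 in ac-CYB5R3–KO hearts, a log2 difference of -0.32. Pam16 per Hspa9 was 0.119, 0.144 and 0.183 in ac-WT and 0.102, 0.117 and 0.136 in ac-CYB5R3–KO hearts, also a log2 difference of -0.32. Grpel1 per Hspa9 went the other way, from a median of 0.176 to one of 0.192, a log2 difference of 0.11. The groups overlapped in all 3 ratios. For Dnajc19 and Pam16 per Hspa9 the highest ac-WT heart was again that of mouse 2, and differences without it were not computed.

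The processing peptidase stood at the upper end of the list. Pmpca, the substrate-binding alpha subunit, lay at 26.7, 28.3 and 29.6 CPM in ac-WT and at 26.4, 29.5 and 41 CPM in ac-CYB5R3–KO hearts. Pmpcb, the catalytic beta subunit, lay at 53.7, 62.5 and 72.9 CPM in ac-WT and at 50.6, 66 and 97.8 CPM in ac-CYB5R3–KO hearts. Both were highest in the heart of ac-CYB5R3–KO mouse 2, the groups overlapped, and neither passed the test, with log2 fold changes of 0.16 (SE 0.11, adjusted p by edgeR = 0.5) and 0.15 (SE 0.15, adjusted p by edgeR = 0.653). Without ac-CYB5R3–KO mouse 2 they were 0.07 and 0.03, without ac-WT mice 2 and 3 they were 0.18 and 0.18, and with total counts 0.42 and 0.41. Pmpca overlaps Inpp5e on the opposite strand. Of the members left, Tomm34, a cytosolic cochaperone of precursors, had a log2 fold change of -0.01, and Timmdc1, which shares the prefix but serves the assembly of complex I, had -0.08.

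Partner and paralog genes were compared as ratios of counts in each heart, for 7 pairs. For Timm17a over Timm17b the median ratio was 4.37 in ac-WT and 4.55 in ac-CYB5R3–KO hearts, with p = 0.511 in the two-sided exact permutation test. Tomm40 over Tomm40l was 13.9 and 14.2 (exact p = 0.983), and Grpel1 over Grpel2 was 3.01 and 2.94 (exact p = 0.574). In these paralog pairs the difference between the groups was smaller than the spread between hearts.

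Timm8a1 over Timm8b had medians of 0.38 and 0.407 (exact p = 0.442), and Pmpca over Pmpcb had 0.453 and 0.452 (exact p = 0.81). Timm9 over Timm10 ran through 0.379, 0.44 and 0.6 in ac-WT and 0.442, 0.526 and 0.667 in ac-CYB5R3–KO hearts, a log2 difference of 0.23 (exact p = 0.0866, 0.447 after adjustment over the 7 pairs). Timm23 over Timm22 ran through 4.23, 5.07 and 6.1 and through 3.72, 4.39 and 5.23, a log2 difference of -0.17 (exact p = 0.128, adjusted p = 0.447). All 7 pairs overlapped between the groups, and none passed the test.

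Levels per length of annotated exons placed the small subunits on top. In ac-WT hearts Timm8b had a mean of 85.3, Tomm7 of 78.3 and Tomm5 of 75.1 CPM per kb, followed by Samm50 with 62.7, Timm23 with 52.8, Hspa9 with 52 and Tomm22 with 51.5. The lowest tested members were Tomm40l with 0.842, Timm10b with 2.77 and Grpel2 with 2.87 CPM per kb. In ac-CYB5R3–KO hearts the order at the top was Timm8b with 72.4, Tomm5 with 62.6, Tomm7 with 59.7, Tomm22 with 49.6, Samm50 with 48.2 and Hspa9 with 47.5. In ac-WT hearts each of these 7 differed from the next by less than the larger SD of the pair. In ac-CYB5R3–KO hearts Timm8b lay above Tomm5, and Tomm7 above Tomm22, by more than that SD, and the other neighbours did not. Exon lengths came from an older annotation (NCBIM37), so the order is approximate. Across the 31 members, which share their libraries, the log2 fold change and the exon length had a Spearman rho of 0.41, with the shorter transcripts at the lower values.

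Beyond the members, 22 other genes of import and protein handling in mitochondria were tested, and 0 passed an adjusted p under 0.05. At an unadjusted p under 0.05, 5 were lower and 1 was higher, beside 9.73% and 4.91% of all genes, and their median log2 fold change was -0.19. Without ac-WT mice 2 and 3 the median was 0.03, with 9 genes lower and 13 higher, and 1 was lower at an unadjusted p under 0.05 (4.55% of the list beside 4.53% of all genes). With total counts the median was 0.13 beside 0.26 for all genes, and 0 were lower at that p beside 2.06% of all genes. Dnajc15, the paralog of Dnajc19 at the same motor, had the lowest value. It lay at 47.6, 53.8 and 94.5 CPM in ac-WT and at 35.1, 41.8 and 46.3 CPM in ac-CYB5R3–KO hearts, and the groups did not overlap. Its log2 fold change was -0.57 (SE 0.16, adjusted p by edgeR = 0.184; with DESeq2, adjusted p = 0.0446), and -0.30 without ac-WT mice 2 and 3. With total counts the value was -0.23. Dnajc15 was the 1 gene of this list lower at an unadjusted p under 0.01. Cox18, an insertase for a cytochrome oxidase subunit, had the highest value, with 3.73, 4.43 and 5 CPM in ac-WT and 4.64, 5.49 and 6.95 CPM in ac-CYB5R3–KO hearts (log2 fold change 0.34, SE 0.12, adjusted p by edgeR = 0.244).

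Other genes encoding imported proteins were set beside the import machinery by their counts. Of 76 tested mitochondrial ribosomal protein genes 72 were lower, 41 at an unadjusted p under 0.05 (53.9%, beside 9.73% of all genes), with a median log2 fold change of -0.29. With total counts 33 were lower and 43 higher, and 3 were lower at that p (3.95%, beside 2.06% of all genes). The median was then 0.03 beside 0.26 for all genes. Of 38 tested complex I subunit genes 37 were lower, 33 at an unadjusted p under 0.05 (86.8%) and 24 at an unadjusted p under 0.01, beside 9.73% and 3.27% of all genes, with a median of -0.65. Neither list had a gene with an adjusted p under 0.05. Without ac-WT mice 2 and 3, 36 complex I genes were lower, 18 at an unadjusted p under 0.01 beside 1.33% of all genes, with a median of -0.30. The ribosomal median was then -0.10, with 16 genes lower at an unadjusted p under 0.05 beside 4.53% of all genes. With total counts 34 complex I genes were lower, 11 at an unadjusted p under 0.01 beside 0.79% of all genes.

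Inside each heart, the mean log2(CPM) of complex I subunits minus that of the import genes was 2.46, 2.67 and 3.11 in ac-WT and 2.18, 2.32 and 2.46 in ac-CYB5R3–KO hearts. The difference between the groups was -0.42, and -0.28 without ac-WT mice 2 and 3. The groups did not overlap, but by a narrow margin, since the lowest ac-WT heart was at 2.465 and the highest ac-CYB5R3–KO heart at 2.463. For mitochondrial ribosomal proteins minus import genes the difference was -0.13 and the groups overlapped.

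**Figure D4:**
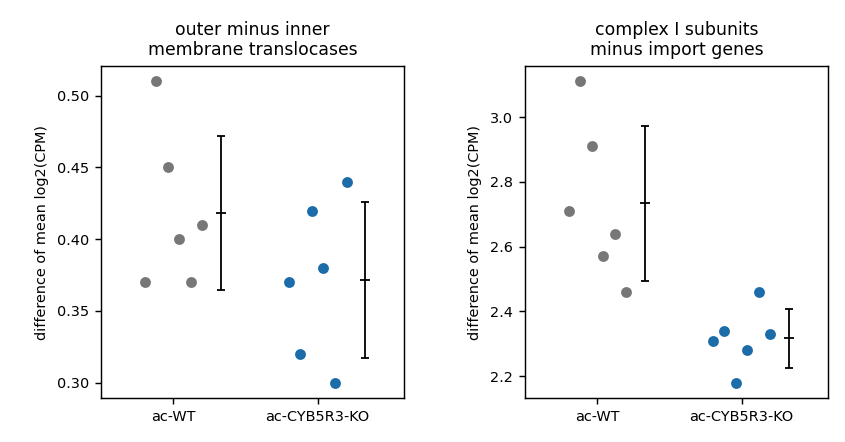
Differences of mean log2(CPM) inside each heart (points, 6 ac-WT in grey and 6 ac-CYB5R3–KO in blue, in the order of mouse number; bars, mean ± SD), for outer minus inner membrane translocases (left) and complex I subunits minus import genes (right). The groups overlap on the left and just fail to overlap on the right, where all ac-CYB5R3–KO points are at or below 2.46; the axes do not start at 0.

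Promoters were then read for letters that members share. RefSeq start sites (build GRCm38.p6) gave windows of 300 bases, 250 before and 50 after the start, for 29 of the 34 members. Grpel2, Hspa9, Timm21, Tomm40l and Tomm7 had no window. The core CCGGAAG of ETS-type sites, the kind bound by NRF-2/GABP, a known regulator of nuclear genes for mitochondria, was found on either strand in 13 of 29 members (44.8%), beside 9.93% of 27025 genes and 12.9% of 17492 protein-coding genes with a window. The 12 tested members with this match had a median log2 fold change of -0.03 and the 14 without it one of -0.22. These medians without ac-WT mice 2 and 3 were 0.03 and -0.05. The palindromic NRF-1 core was found in 0 of 29 members and 1.07% of genes. TCAAGGTCA, an estrogen-related receptor element, was found in Timm8b alone (0.466% of genes) and AAGATGGC of YY1 in Timm50 alone (3.19% of genes). TATAAA was found in 3 members, Dnajc19, Timm13 and Tomm5 (15.7% of genes), and CCAAT in 10 (41.1% of genes).

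The 100 bases before the start are shown for the peptidase pair at the top of the list, for the receptors Tomm70a and Tomm22, for Timm8b with 2 kinds of match, and for Pam16 from the lower end, which has none of these letters. They were chosen after the values were seen. Each runs 5′ to 3′ on the strand of its gene, with matches on either strand in capitals. They lie at chr2:26389248-26389347 (plus strand, Pmpca), chr5:21737060-21737159 (plus, Pmpcb), chr16:57121614-57121713 (plus, Tomm70a), chr15:79670768-79670867 (plus, Tomm22), chr9:50603801-50603900 (plus, Timm8b) and chr16:4624947-4625046 (minus, Pam16).
Pmpca: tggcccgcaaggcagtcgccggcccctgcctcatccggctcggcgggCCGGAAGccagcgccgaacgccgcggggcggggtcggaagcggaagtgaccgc
Pmpcb: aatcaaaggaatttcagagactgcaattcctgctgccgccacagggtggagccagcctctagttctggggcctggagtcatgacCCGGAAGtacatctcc
Tomm70a: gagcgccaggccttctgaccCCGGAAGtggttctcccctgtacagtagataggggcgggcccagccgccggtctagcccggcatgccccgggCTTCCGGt
Tomm22: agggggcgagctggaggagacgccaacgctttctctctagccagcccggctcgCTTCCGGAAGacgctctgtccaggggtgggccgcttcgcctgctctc
Timm8b: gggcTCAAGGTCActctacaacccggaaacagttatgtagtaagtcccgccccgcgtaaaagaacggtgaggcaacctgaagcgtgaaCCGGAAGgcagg
Pam16: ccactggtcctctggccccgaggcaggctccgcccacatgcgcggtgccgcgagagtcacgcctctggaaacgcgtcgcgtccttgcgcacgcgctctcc
In Tomm22 the matches on opposite strands overlap and form 1 run of capitals. In Timm8b the first run is the TCAAGGTCA match and the last the CCGGAAG match. A match describes letters in these windows, and binding of a factor was not measured.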

How the data were processed

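Male ac-WT and ac-CYB5R3–KO hearts (6 each) were pulverized frozen and their total RNA sequenced with a stranded kit. The deposited file holds raw counts, a whole number per Ensembl gene and heart, which the authors had not normalized. The study's methods describe trimming, STAR and the mm9 genome, whereas the submitters' processing notes name STAR, featureCounts and GRCm39, so no gene coordinates are given from the counts. Annotation, strand setting and treatment of multi-mapped reads are not given in the sources used here. The authors' FPKM values were not used.

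Identifiers were matched to symbols for 31027 of 53700 genes, 4 members through RefSeq synonyms. Counts were filtered with filterByExpr (minimum count 10), scaled with TMM factors and fitted in edgeR (4.0.16, under R 4.3.3) by quasi-likelihood, two-sided and without covariates, with Benjamini-Hochberg adjustment over 17847 genes. The fits were tested on simulated data. Ratios used counts plus 0.5, and exact permutation tests enumerated every split of 6 against 6. By rule, members were named in full for an unadjusted p under 0.01, groups without overlap, the extreme log2 fold changes or a place in a pair, and other import genes for an unadjusted p under 0.01 or an extreme value. Members lower at an unadjusted p under 0.05 were added after their values were seen. Members and lists were chosen with earlier results of these data known.

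As alternatives, DESeq2 1.42.0, voom of limma 3.58.1, RLE factors, total counts, no filter, a floor of 10 counts per library, a replicate block, and fits without single mice were tried. Counts of members at an unadjusted p under 0.05, counts of other import genes and complex I values were added after seeing the data. With 43393183 to 53754284 counts per library, the spread between mice limits most values. The floor of 3 counts covers counting error only. A replicate number names different animals in the 2 groups, and p-values measure the spread between these hearts.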

Additional observations from a re-analysis of the deposited data

Results flagged for a closer look

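Among 76 sets of 6 hearts, 10 held a heart far from the other 5. Its gap to the nearest was above the critical share of the range by Dixon's test. Chance alone gives about 1 in 20 for independent sets. These sets share the same hearts, so their number cannot be judged by that rate. Member levels were screened with TMM factors only, and the screen was not repeated with total counts. In 9 of the 10, the far heart was that of ac-WT mouse 2, as the highest. Motor genes were Dnajc19 at 66.5 CPM (the other ac-WT hearts 30.3 to 41.3), Pam16 at 50.2 CPM (22.7 to 30) and Grpel2 at 14.2 CPM (10.6 to 11.7). Inner membrane genes were Timm23 at 139 CPM (78.6 to 90) and Timm50 at 41 CPM (22.4 to 29.3). Chaperones of the intermembrane space were Timm8a1 at 24.8 CPM (14.2 to 17.2) and Timm8b at 67.2 CPM (36.8 to 44.5). Outer membrane genes were Tomm5 at 103 CPM (51.3 to 66.9) and Tomm7 at 139 CPM (66 to 90). The same heart had the lowest TMM factor, 0.57, and the highest sum of cardiomyocyte markers, 53851 CPM, and the part of either in these levels was not tested. The remaining far heart was ac-CYB5R3–KO mouse 3, with Timm9 at 10 CPM beside 14 to 15.5 CPM in the other 5.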

How the results depend on the processing

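No member passed an adjusted p under 0.05 under any alternative, including the replicate block, under which 2 genes in all passed it. The deviations of same-numbered mice from their group means correlated by 0.144 on average (-0.0806 to 0.353, over 0.1 in 4 of 6 pairs). For the 30 differently numbered pairs the mean was -0.0282. The main fit did not use the numbers as pairs, and whether they mark a shared batch was not tested. Members lower at an unadjusted p under 0.01 numbered 1 with DESeq2, 1 without the filter and 0 to 4 with a mouse left out. They were 4 without ac-WT mouse 1, 2 without ac-WT mouse 6, and 1 without ac-WT mouse 2 or ac-CYB5R3–KO mouse 2. Members lower at an unadjusted p under 0.05 numbered 0 with total counts, beside 2.06% of all genes. Without ac-WT mice 2 and 3 they numbered 2, beside 4.53%. Other import genes at an unadjusted p under 0.01 numbered 2 with DESeq2, 2 with the block, 0 with total counts and 1 to 3 with a mouse left out (2 without ac-WT mouse 1, 3 without ac-WT mouse 6). For complex I they were 11 with total counts and 13 to 30 with a mouse left out (16 with the block and 16 without ac-WT mouse 3, 13 without ac-CYB5R3–KO mouse 3). All genes at an unadjusted p under 0.01 numbered 820, 1238 with DESeq2, 426 with total counts, 426 without ac-WT mice 2 and 3, and 463 to 1169 with a mouse left out; 71.1% were lower in ac-CYB5R3–KO hearts, 33.1% with total counts. At an adjusted p under 0.05 they were 18, and 437 with DESeq2, 8 with RLE factors, 2 with limma-voom, 35 without the filter, 8 with total counts, 7 without ac-WT mice 2 and 3, and 2 to 38 with a mouse left out. With total counts the median log2 fold change was 0.17 for members, 0.19 for outer, 0.16 for inner membrane genes and 0.26 for all genes. For complex I it was -0.28 with total counts and -0.30 without ac-WT mice 2 and 3. Of all genes 18.1% were lower with total counts, beside 51.2% with TMM factors. A change of sign under that scaling is therefore not particular to the members. With total counts 20 members changed sign: Timmdc1 0.21, Tomm34 0.28, Grpel1 0.26, Hspa9 0.17, Timm44 0.01, Timm17a 0.16, Timm17b 0.09, Timm21 0.23, Timm22 0.24, Timm23 0.09, Timm50 0.04, Chchd4 0.27, Timm10 0.04, Timm8a1 0.15, Timm8b 0.09, Timm9 0.28, Tomm22 0.24, Tomm40 0.19, Tomm40l 0.21 and Tomm5 0.08. Without ac-WT mice 2 and 3, 13 did: Timmdc1 0.03, Tomm34 0.09, Grpel1 0.02, Hspa9 0.03, Timm17a 0.01, Timm21 0.11, Timm22 0.04, Chchd4 0.07, Timm8a1 0.0037, Timm9 0.16, Tomm22 0.08, Tomm40 0.07 and Tomm40l 0.06. Without the filter, Tomm34 was 0.02, Grpel1 0.01 and Chchd4 0.02. With a mouse left out, values ran from -0.06 to 0.04 for Tomm34, -0.06 to 0.05 for Grpel1, -0.0011 to 0.11 for Grpel2, -0.15 to 0.02 for Timm21, -0.10 to 0.03 for Timm22, -0.05 to 0.04 for Chchd4, -0.10 to 0.10 for Timm9, -0.13 to 0.08 for Tomm22, -0.20 to 0.02 for Tomm40 and -0.18 to 0.0006 for Tomm40l, and the log2 ratio differences from -0.09 to 0.13 for Tomm40 over Tomm40l, -0.08 to 0.01 for Grpel1 over Grpel2 and -0.02 to 0.06 for Pmpca over Pmpcb. The cause of these changes was not tested. The lowest tested member, Tomm40l, held 1584 counts, and differences between the groups under the spread of 6 mice could not be seen.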
